A study of Mus musculus with 5 samples.

Results

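The genes described here are the constitutive proteasome genes of mouse, taken as all 46 genes of the deposited table whose symbols start with Psma to Psmg and a digit, out of 23284 genes in all. The interferon-inducible catalytic subunits Psmb8, Psmb9 and Psmb10 were left out and serve as a comparison. They were measured by RNA sequencing of whole primary melanomas: 2 libraries of tumors from B16F1-CXCL5 cells, a B16F1 line that overexpresses the chemokine CXCL5, and 3 libraries of tumors from B16F1 cells. B16F1 is a melanoma line of C57BL/6 mice. Both kinds of cell were injected into the skin over the flank of untreated C57BL/6 J mice, and tumors were taken at 250 to 350 mm³. The labels give neither the age of the mice, nor whether a library is a separate mouse, nor whether the overexpressing cells are a single clone or the B16F1 cells carry an empty vector. P-values therefore measure the spread between these libraries only.

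The proteasome is the barrel-shaped protease that degrades proteins tagged with ubiquitin in the cytosol and nucleus. Its core holds rings of alpha subunits, which form the gate, and rings of beta subunits, 3 of which cut peptide bonds. A regulatory particle on either end recognises ubiquitin, removes it and unfolds the substrate with a ring of ATPases, and alternative activators can take its place. Dedicated chaperones assemble both parts. In cells exposed to interferon gamma, Psmb8, Psmb9 and Psmb10 take the places of the catalytic subunits Psmb5, Psmb6 and Psmb7 and shift the cleavage preference toward peptides that suit MHC class I.

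By role, the 46 genes comprise 16 core genes, 22 regulatory genes and 7 assembly chaperones. The remaining gene, Psmc3ip, is caught by its name alone: it encodes HOP2, a meiotic recombination factor, and not a proteasome subunit. Levels are FPKM, fragments per kilobase of transcript scaled to the size of the library, as the authors deposited them. A total of 44 of the 46 genes reached an FPKM of 1 in 2 or more libraries and entered the test with 12533 genes in all. The test was limma on log2(FPKM + 1), with Benjamini-Hochberg adjustment over all tested genes and a threshold of 0.05. A negative log2 fold change means a lower value in B16F1-CXCL5 tumors than in B16F1 tumors.

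The markers went with the labels. Cxcl5 had 83.7 and 85.4 FPKM in B16F1-CXCL5 tumors, against 1.86, 3.62 and 1.01 FPKM in B16F1 tumors. All 7 melanocyte lineage markers were detected in every library, with a summed 9704 and 10650 FPKM in B16F1-CXCL5 and 9085 to 12360 FPKM in B16F1 tumors. The 6 neutrophil markers summed to 731 and 800 FPKM in B16F1-CXCL5 tumors and to 13.4 to 39.9 FPKM in B16F1 tumors, and 5 of them passed the test. The 5 skeletal muscle markers, of which 0 passed and none was at 0, summed to 463 FPKM in B16F1-CXCL5 library 1 and 1151 FPKM in library 2, and to 499.6, 509 and 1556 FPKM in the B16F1 libraries. Depth, estimated from the steps of the lowest values, was 27700000 and 28100000 fragments in B16F1-CXCL5 libraries and 26600000 to 28600000 fragments in B16F1 libraries. At that depth 1 FPKM over 1 kilobase rests on 26.6 to 28.6 fragments. The tested proteasome subunits and chaperones had means from 14.75 to 327.9 FPKM.

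The 44 tested proteasome genes were expressed in every library, and none passed the test between the groups. Psma8 and Psmb11 did not reach the filter. Together the 46 genes held 0.934% and 0.861% of the summed FPKM of the B16F1-CXCL5 libraries and 0.892% to 0.952% of that of the B16F1 libraries. Limma called 0 of the 44 tested genes at an adjusted p of 0.05, against a background of 0.136% of all tested genes (0.128% higher and 0.00798% lower), and the adjusted p-values lay between 0.414 and 0.996. At an unadjusted p under 0.05 there were 6 genes, or 13.6%, all with lower values in B16F1-CXCL5 tumors, against 5.39% of all tested genes in that direction. In the other direction there were 0, against a background of 3.57%. The 6 became 0 when the second B16F1-CXCL5 library was left out, 1 when B16F1 library 2 was, and 2 when B16F1 library 3 was. The median log2 fold change over the 44 genes was -0.08, beside -0.01 over all tested genes, and 38 of the 44, or 86.4%, were negative, beside 53.4% of all tested genes. With every library scaled to the same sum 29 were negative. At that scaling the median was -0.03 over the 44 genes and 0.03 over all tested genes.

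**Figure D1:**
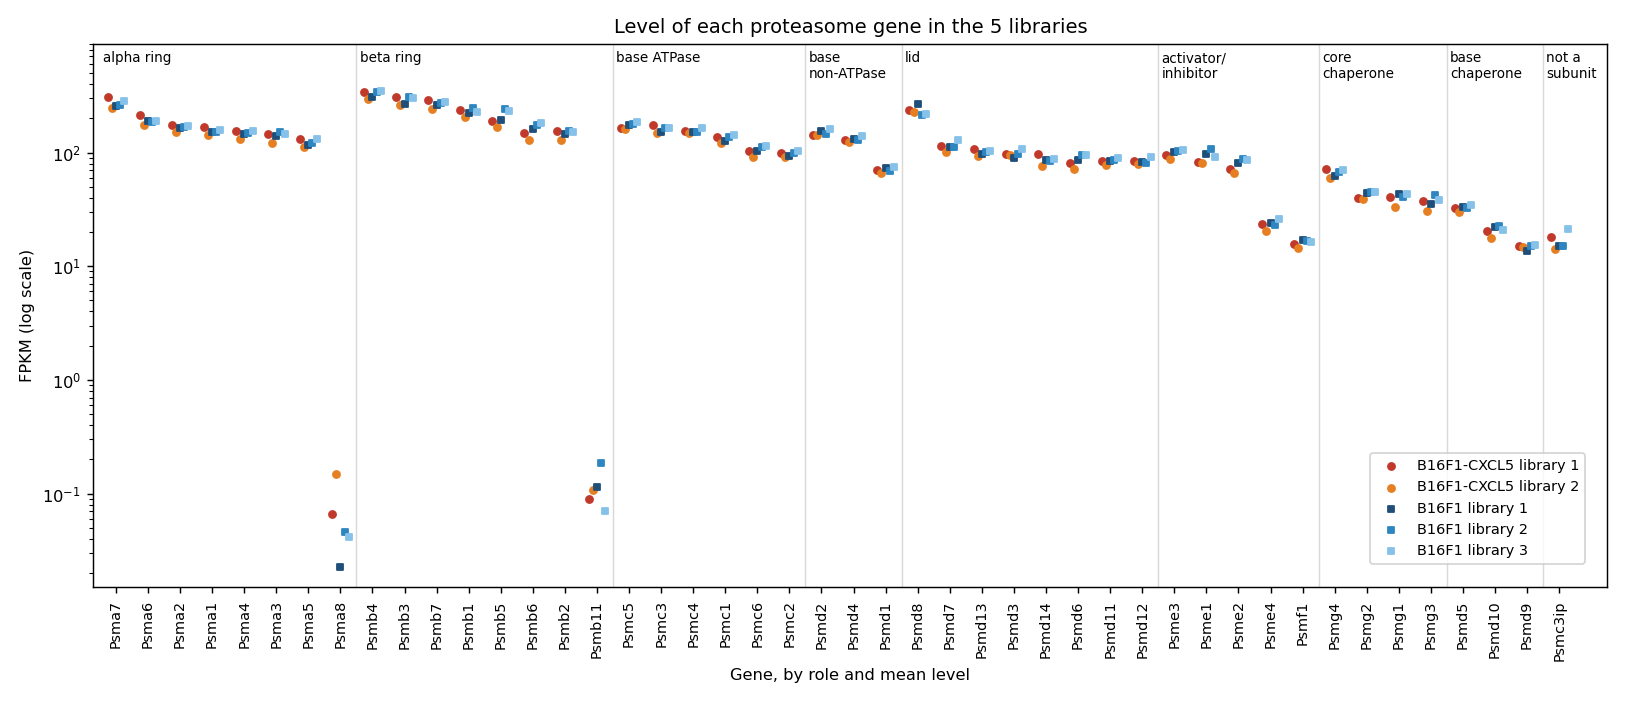
FPKM on a log axis of each of the 46 genes, grouped by role and ordered by mean level, in 2 B16F1-CXCL5 libraries (circles) and 3 B16F1 libraries (squares). The 14 core subunits other than Psma8 and Psmb11 lie between about 112 and 351 FPKM in every library, and the chaperones lie lower.

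The alpha ring subunits had log2 fold changes close to 0, and none passed the test. The 7 genes of the ring of somatic cells had means from 121.7 FPKM for Psma5 to 271.3 FPKM for Psma7. Psma5 had 131.0 and 111.6 FPKM in B16F1-CXCL5 tumors, against 115.5, 120.5 and 130.2 FPKM in B16F1 tumors, with overlap. Psma7 had 307.2 and 246.0 FPKM in B16F1-CXCL5 tumors, against 254.9, 264.0 and 284.1 FPKM in B16F1 tumors. The B16F1-CXCL5 libraries thus took both the highest and the lowest place, and the groups overlapped (log2 fold change 0.04, SE 0.12, limma adjusted p = 0.959). Psma3 had the lowest log2 fold change of the ring, -0.13 with an SE of 0.10 (limma adjusted p = 0.766), from 145.3 and 120.2 FPKM in B16F1-CXCL5 tumors, against 138.5, 150.9 and 146.1 FPKM in B16F1 tumors. The other 5, Psma1, Psma2, Psma4, Psma5 and Psma6, had log2 fold changes from -0.07 for Psma4 to 0.04 for Psma6. The levels of Psma2, Psma3, Psma4 and Psma5 are uncertain, because processed pseudogenes match their transcripts, that of Psma3 at 100% over 685 nt. The ring's median was -0.01, 4 of 7 were negative, and 0 had groups that did not overlap. Of all tested genes, 53.4% were negative, 15.6% were lower without overlap and 10.8% were higher without overlap.

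Psma8, the form of alpha4 used in the testis in place of Psma7, was close to the detection limit. It had 0.066 and 0.149 FPKM in B16F1-CXCL5 tumors, against 0.023, 0.046 and 0.042 FPKM in B16F1 tumors, where a single fragment over 1 kilobase is worth 0.035 to 0.0376 FPKM. These values rest on a few fragments or fewer per library, and the gene was not tested.

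In the beta ring, 2 of the 3 catalytic subunits had lower values in both B16F1-CXCL5 libraries than in any B16F1 library, while the third did not; 15.6% of all tested genes were lower without overlap. The share was 39.4% among other genes of chromosome 14, where Psmb5 lies, and 48.1% among those of chromosome 11 before 80 Mb, where Psmb6 lies. Psmb5, the beta5 subunit that cuts after hydrophobic residues and is the main target of bortezomib, had 189.2 and 167.8 FPKM in B16F1-CXCL5 tumors, against 193.9, 240.1 and 233.9 FPKM in B16F1 tumors. The groups did not overlap, but B16F1 library 1 lay just above B16F1-CXCL5 library 1. The means were 178.5 ± 15.1 FPKM (SD, n = 2) in B16F1-CXCL5 and 222.6 ± 25.1 FPKM (SD, n = 3) in B16F1 tumors, so that the B16F1-CXCL5 mean was 19.8% lower. The log2 fold change was -0.31 ± 0.12 (SE; 95% interval -0.61 to -0.02; limma adjusted p = 0.533). The levels of Psmb5 are uncertain, because the transcript of the pseudogene Gm3375 matches it at 98.99% over 790 nt.

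Psmb6, the beta1 subunit that cuts after acidic residues, had 149.1 and 130 FPKM in B16F1-CXCL5 tumors, against 160.5, 175.1 and 180.0 FPKM in B16F1 tumors. The B16F1-CXCL5 values were again the 2 lowest of the 5. The log2 fold change was -0.30 ± 0.09 (SE; 95% interval -0.53 to -0.07; limma adjusted p = 0.463). Psmb7, the beta2 subunit that cuts after basic residues, had 289.2 and 240.3 FPKM in B16F1-CXCL5 tumors, against 262.8, 274.5 and 280.2 FPKM in B16F1 tumors. Its groups overlapped, at a log2 fold change of -0.05 ± 0.10 (SE; 95% interval -0.29 to 0.20; limma adjusted p = 0.941). It turned positive, at 0.002, when every library was scaled to the same sum. Psmb7 overlaps Nek6 in the annotation, and reads of overlapping genes may not have been separable.

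The other 4 structural beta subunits had overlapping groups. Psmb4 was the highest of all proteasome genes at a mean of 327.9 FPKM, with 341.2 and 298.1 FPKM in B16F1-CXCL5 tumors, against 308.3, 341.5 and 350.5 FPKM in B16F1 tumors (log2 fold change -0.06 ± 0.10, SE). Psmb3 had 308.2 and 263.2 FPKM in B16F1-CXCL5 tumors, against 266.5, 307.6 and 302.4 FPKM in B16F1 tumors. Its log2 fold change was the highest of the ring, -0.03 ± 0.11 (SE; limma adjusted p = 0.965), and it turned positive at the same sum per library (0.01). Psmb3 also matches 5 pseudogenes, at up to 97.1%, so its level is uncertain. Psmb1 and Psmb2 had log2 fold changes of -0.09 each. Between Psmb4 and Psma5, the mean levels of the 14 subunits spanned 2.69-fold, although the core holds its subunits in equal numbers. Psmb11, the beta5t subunit of thymic epithelium, had 0.090 and 0.108 FPKM in B16F1-CXCL5 and 0.114, 0.187 and 0.071 FPKM in B16F1 libraries, too little for the test.

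The promoters of Psmb5 and Psmb6 are shown because these core genes had the lowest log2 fold changes and both hold the letters TGACNNNGC, the core of the antioxidant response element that NFE2L1 and NFE2L2 bind. The sequences are the 120 bases before the start site in the RefSeq windows (GRCm38.p6), read 5′ to 3′ on the strand of the gene, with the match in capitals.
Psmb5, chr14:54617996-54618115, minus strand: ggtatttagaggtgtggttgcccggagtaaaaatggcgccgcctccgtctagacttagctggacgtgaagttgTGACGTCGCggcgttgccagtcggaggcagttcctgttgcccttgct
Psmb6, chr11:70525237-70525356, plus strand: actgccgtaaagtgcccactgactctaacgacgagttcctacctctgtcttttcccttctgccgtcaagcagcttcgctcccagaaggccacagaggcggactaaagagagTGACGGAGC
The match of Psmb5 lies 47 to 39 bases before its start. That of Psmb6 lies 9 to 1 bases before the start site of its window. RefSeq's extent of Psmb6 begins at 70525324, so its match and the end of the printed sequence lie inside that extent. Windows of 300 bases were found for 38 of the 46 genes, 41 windows in all. On either strand 6 of the 41 windows, or 14.6%, held the letters, beside 12.4% of 32851 windows of all genes. The other 4 genes with a match were Psmc6, Psmd12, Psmd9 and Psme4, with log2 fold changes of -0.17, -0.06, 0.02 and -0.15. CCAAT, the letters that NF-Y binds, was in 34.1% of the proteasome windows and 37.4% of all windows. Neither share of the proteasome windows was far from that of all windows.

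**Figure D2:**
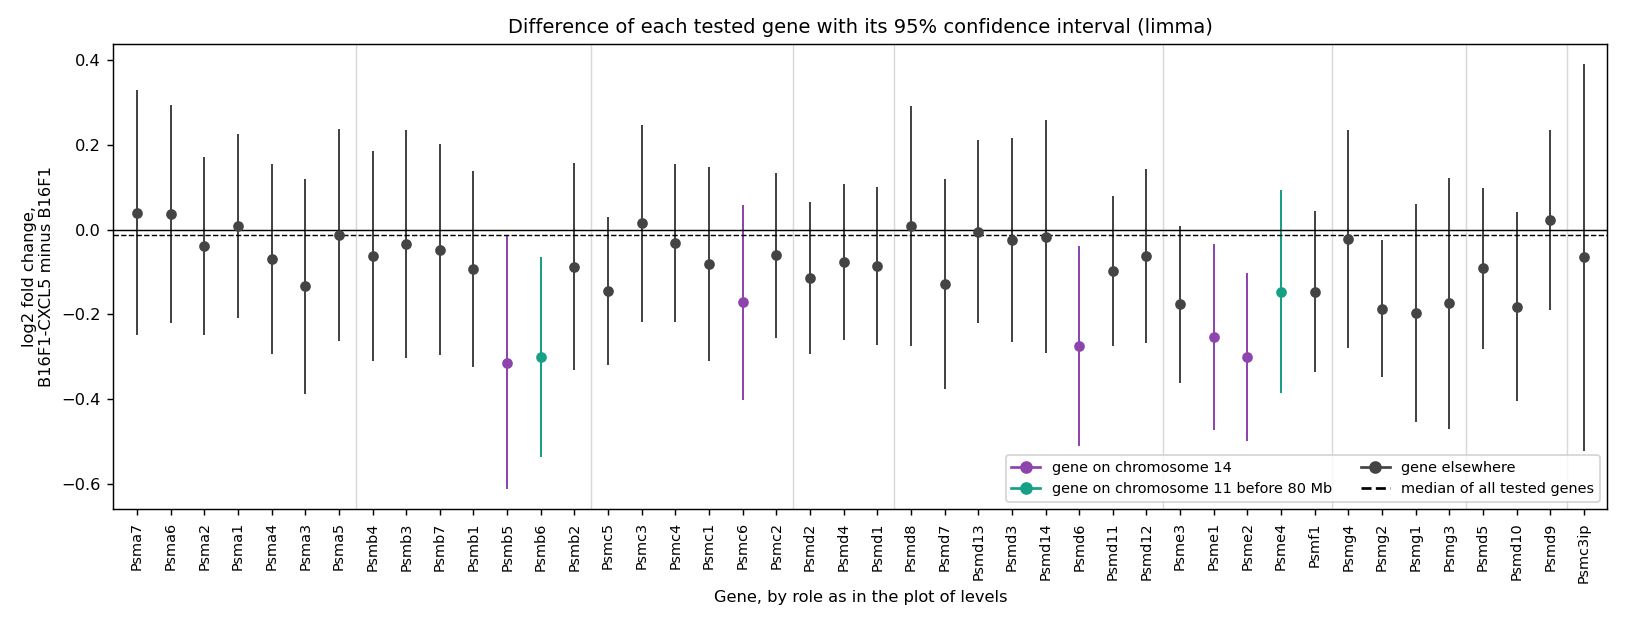
Log2 fold change on the log2(FPKM + 1) scale, B16F1-CXCL5 minus B16F1, with its 95% limma confidence interval for the 44 tested genes by role. Intervals that leave out 0 belong to Psmb5, Psmb6, Psmd6, Psme1, Psme2 and Psmg2, and all points lie between -0.31 and 0.04.

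The ATPases of the regulatory particle, which unfold substrates and open the gate, had means from 96.8 FPKM for Psmc2 to 172.4 FPKM for Psmc5. Of the 6 genes, 5 had a negative log2 fold change, beside 53.4% of all tested genes, with a median of -0.07. Psmc5 had 163.5 and 160.5 FPKM in B16F1-CXCL5 tumors, against 173.9, 177.0 and 187.0 FPKM in B16F1 tumors (log2 fold change -0.14, limma adjusted p = 0.634). It was the only 1 of the 6 ATPases whose groups did not overlap, where 15.6% of all tested genes were lower without overlap. Psmc6 had the lowest log2 fold change of the ring, -0.17 with an SE of 0.09 (limma adjusted p = 0.670), from 103.5 and 90.8 FPKM in B16F1-CXCL5 tumors, against 102.3, 112.8 and 113.1 FPKM in B16F1 tumors. Psmc3 had 173.9 and 149.7 FPKM in B16F1-CXCL5 tumors, against 151.2, 162.8 and 165.3 FPKM in B16F1 tumors. Its log2 fold change was the highest of the ring, 0.02 ± 0.09 (SE; limma adjusted p = 0.981), and changed sign without B16F1 library 1 (-0.02), without B16F1-CXCL5 library 1 (-0.09) and with position adjusted (-0.003). Psmc1, Psmc2 and Psmc4 lay at -0.08, -0.06 and -0.03.

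The 3 other base subunits serve as scaffolds and ubiquitin receptors. Psmd2, the large scaffold Rpn1, had 143.4 and 141.5 FPKM in B16F1-CXCL5 tumors, against 155.8, 146.9 and 160.3 FPKM in B16F1 tumors. Its groups did not overlap (log2 fold change -0.11, SE 0.07, limma adjusted p = 0.721). Psmd2, Psmd11 and Psmc1 also match pseudogenes at 95.6% to 98.0%, so that their levels are uncertain. Psmd4, the ubiquitin receptor Rpn10, had 129.0 and 123.0 FPKM in B16F1-CXCL5 tumors, against 131.1, 128.4 and 139.5 FPKM in B16F1 tumors, with overlap (log2 fold change -0.08, SE 0.07, limma adjusted p = 0.827). Psmd1, the scaffold Rpn2, also had overlapping groups, with a log2 fold change of -0.09.

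Of the 8 lid subunits, 7 had a negative log2 fold change, beside 53.4% of all tested genes, with a median of -0.04. Psmd6, the lid subunit Rpn7, had 80.8 and 71.4 FPKM in B16F1-CXCL5 tumors, against 85.1, 96.0 and 95.4 FPKM in B16F1 tumors. The groups did not overlap, and the means of 76.1 ± 6.62 FPKM (SD, n = 2) in B16F1-CXCL5 and 92.2 ± 6.13 FPKM (SD, n = 3) in B16F1 tumors differed by 17.5%. The log2 fold change was -0.27 ± 0.09 (SE; limma adjusted p = 0.492). Psmd11, the lid subunit Rpn6, had 83.5 and 78.2 FPKM in B16F1-CXCL5 tumors, against 84.6, 85.7 and 89.3 FPKM in B16F1 tumors, also without overlap, and a log2 fold change of -0.10. Psmd14, the deubiquitinase Rpn11 that removes the ubiquitin chain, had 96.1 and 76.1 FPKM in B16F1-CXCL5 tumors, against 86.8, 85.03 and 87.7 FPKM in B16F1 tumors, so that the B16F1-CXCL5 libraries lay on both sides of the others. Psmd3, Psmd7, Psmd12 and Psmd13 had log2 fold changes from -0.13 for Psmd7 to -0.004 for Psmd13.

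Psmd8 stood apart from the other lid genes in level and in pattern. Its mean of 232.8 FPKM was 2.70 times the median of the other lid subunits, and it had 237.6 and 228.4 FPKM in B16F1-CXCL5 tumors, against 265.3, 212.6 and 219.9 FPKM in B16F1 tumors. Its log2 fold change was 0.01 (limma adjusted p = 0.992), the highest of the lid. It was negative without B16F1-CXCL5 library 1 (-0.02), without B16F1 library 2 (-0.05), without B16F1 library 3 (-0.03) and with position adjusted (-0.07).

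The activators and the inhibitor had the lowest median log2 fold change of the regulatory genes, -0.18, with 5 of 5 negative and 4 of 5 lower without overlap, beside 53.4% and 15.6% of all tested genes. Among the other genes of chromosome 14, where Psme1 and Psme2 lie, 39.4% were lower without overlap. Psme1 and Psme2 encode the PA28 alpha and beta subunits, which form an interferon-inducible activator ring. Psme1 had 82.9 and 81.3 FPKM in B16F1-CXCL5 tumors, against 97.7, 106.3 and 90.6 FPKM in B16F1 tumors. The B16F1-CXCL5 values were close to each other and below all B16F1 values (log2 fold change -0.25, SE 0.09, limma adjusted p = 0.496). Psme2 had 72.2 and 65.6 FPKM in B16F1-CXCL5 tumors, against 81.1, 88.1 and 85.9 FPKM in B16F1 tumors, also without overlap. Its log2 fold change of -0.30, with an SE of 0.08, had the smallest p of all proteasome genes (limma adjusted p = 0.414). The levels of Psme2 are uncertain, because the transcript of Psme2b matches it at 99.4% over 794 nt.

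Psme3, the nuclear activator PA28 gamma, had 95.7 and 87.3 FPKM in B16F1-CXCL5 tumors, against 101.6, 102.6 and 106.1 FPKM in B16F1 tumors, without overlap (log2 fold change -0.18, limma adjusted p = 0.583). Psmf1, the regulator PI31, had 15.6 and 14.5 FPKM in B16F1-CXCL5 tumors, against 17.2, 16.7 and 16.4 FPKM in B16F1 tumors, again without overlap (log2 fold change -0.15, limma adjusted p = 0.658). Psme4, the activator PA200, had overlapping groups and a log2 fold change of -0.15.

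Among the assembly chaperones, 6 of 7 had a negative log2 fold change, beside 53.4% of all tested genes, with a median of -0.17. Psmg2, which pairs with Psmg1 to guide the alpha ring together, had 39.5 and 38.6 FPKM in B16F1-CXCL5 tumors, against 44.3, 44.9 and 44.6 FPKM in B16F1 tumors. The spread within each group was far smaller than the gap between them, at means of 39.1 ± 0.627 FPKM (SD, n = 2) in B16F1-CXCL5 and 44.6 ± 0.265 FPKM (SD, n = 3) in B16F1 tumors. The log2 fold change was -0.19 ± 0.06 (SE; limma adjusted p = 0.496). Psmg1 had 40.8 and 33.3 FPKM in B16F1-CXCL5 tumors, against 42.9, 41.0 and 43.4 FPKM in B16F1 tumors (log2 fold change -0.20, SE 0.10, limma adjusted p = 0.662); its groups did not overlap, but B16F1-CXCL5 library 1 lay next to the B16F1 values.

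Psmg3 and Psmg4, the other alpha ring chaperones, had overlapping groups and log2 fold changes of -0.17 and -0.02. Psmg4 had 71.4 and 60.04 FPKM in B16F1-CXCL5 tumors, against 62.3, 66.8 and 70.5 FPKM in B16F1 tumors (SE 0.10, limma adjusted p = 0.979), and its sign turned positive at the same sum per library (0.03). The chaperones of the ATPase ring are Psmd5, Psmd9 and Psmd10. Psmd10, also known as gankyrin, had 20.4 and 17.8 FPKM in B16F1-CXCL5 tumors, against 22.0, 22.6 and 20.8 FPKM in B16F1 tumors, without overlap (log2 fold change -0.18, SE 0.09, limma adjusted p = 0.646). Psmd9 had the lowest mean of the subunits and chaperones tested, 14.75 FPKM, with 14.9 and 14.86 FPKM in B16F1-CXCL5 tumors, against 13.6, 14.92 and 15.5 FPKM in B16F1 tumors. Its log2 fold change was 0.02 ± 0.09 (SE; limma adjusted p = 0.971), and -0.03 without B16F1 library 1. Psmd5 had a log2 fold change of -0.09. Psmc3ip, which is no subunit, had 18.1 and 14.2 FPKM in B16F1-CXCL5 tumors, against 14.9, 15.1 and 21.1 FPKM in B16F1 tumors, and its log2 fold change was -0.07 ± 0.18 (SE).

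Over all roles, 13 of the 44 tested genes, or 29.5%, had lower values in both B16F1-CXCL5 libraries than in every B16F1 library, beside 15.6% of all tested genes. In the opposite direction there were 0 of the 44, beside 10.8% of all tested genes. The 13 were Psmb5, Psmb6, Psmc5, Psmd2, Psmd6, Psmd11, Psme1, Psme2, Psme3, Psmf1, Psmg1, Psmg2 and Psmd10. By group, the median log2 fold change was -0.05 for the 14 tested core genes, -0.09 for the 22 regulatory genes and -0.17 for the 7 assembly chaperones. Whether the groups of genes differ from each other was not tested. In whole tumors, fewer cells of a type and less RNA per cell cannot be told apart.

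**Figure D3:**
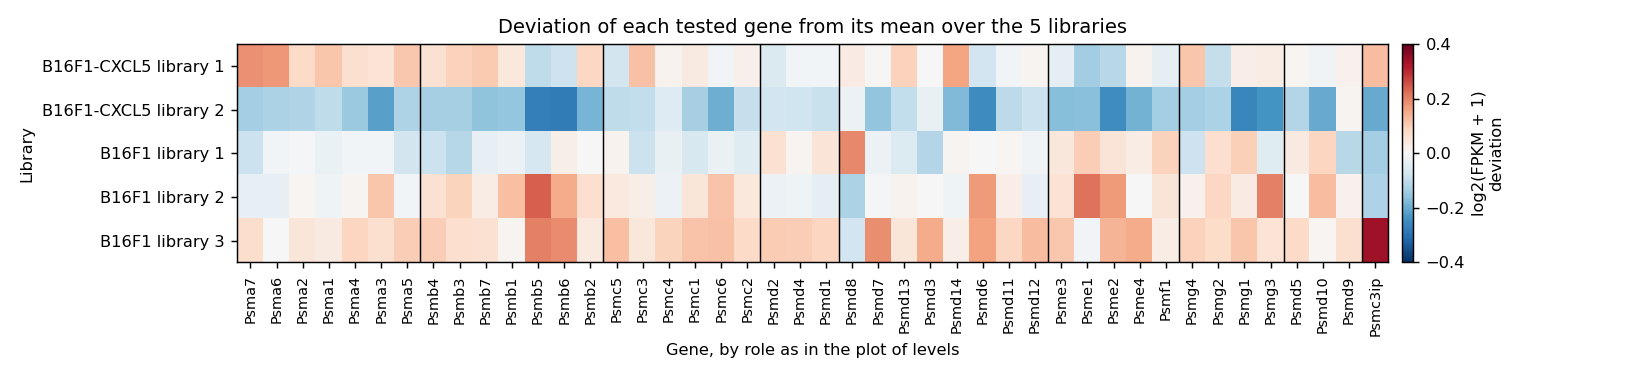
Deviation of log2(FPKM + 1) from the mean of the gene over all 5 libraries, for the 44 tested genes (columns, by role) in the 5 libraries (rows); red is above and blue below the mean. B16F1-CXCL5 library 2 is the lowest for 41 genes. Psmb5, Psmb6, Psmd6, Psme1, Psme2 and Psmg2 are below their mean in B16F1-CXCL5 library 1 as well, and so are Psmc5, Psmd2 and others.

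B16F1-CXCL5 library 2 and B16F1 library 3 stood at the ends of the range. B16F1-CXCL5 library 2 held the lowest value of 41 of the 44 genes, or 93.2%, beside 27% of all tested genes, including all 14 tested core genes. B16F1-CXCL5 library 1 held the lowest value of 0, beside 14.2% of all tested genes, and the highest of 12. At the other end, B16F1 library 3 held the lowest value of 0 genes, beside 26.8% of all tested genes, and the highest of 21. Shares of all tested genes are not given for the highest values. The median deviation of the proteasome genes from their mean was 0.02 and -0.13 on the log2 scale in B16F1-CXCL5 libraries 1 and 2, and -0.01, 0.02 and 0.08 in B16F1 libraries 1, 2 and 3. Without B16F1-CXCL5 library 2 the median log2 fold change was -0.01, with 23 of 44 negative and 0 at an unadjusted p under 0.05. Without B16F1-CXCL5 library 1 it was -0.16.

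The alpha ring diverged most between the B16F1-CXCL5 libraries, with median deviations of 0.11 and -0.13, while those of the activators were -0.04 and -0.17. The summed FPKM of all genes was also lowest in B16F1-CXCL5 library 2, at 573709, with 599644 in library 1 and 602532 to 614064 in the B16F1 libraries. When every library was scaled to the same sum, B16F1-CXCL5 library 2 held the lowest value of 21 of the 44 genes. The share over all tested genes is not given for that scaling. The median log2 fold change was then -0.03, beside 0.03 over all tested genes. The muscle markers given above were high in the second B16F1-CXCL5 library and the third B16F1 library, the libraries with the lowest and the highest proteasome median. The keratinocyte markers were highest in B16F1 library 3 as well, at 953 FPKM, with 402 and 503 FPKM in B16F1-CXCL5 and 340.1 and 343 FPKM in the other B16F1 libraries. Fibroblast, endothelial and macrophage markers had positive log2 fold changes, and 0 of them passed. The 5 fibroblast markers, 5 of 5 with positive log2 fold changes and a median of 0.50, summed to 1567 and 1802 FPKM in B16F1-CXCL5 and 888 to 1810 FPKM in B16F1 libraries. All 4 tested endothelial markers (median 0.23) and all 5 macrophage markers found (median 0.11) were positive too. The part of other cells in the result was not tested.

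Most of the genes with the lowest log2 fold changes lie in 2 regions of the genome. Of the 6 genes with an unadjusted p under 0.05, 4 lie on chromosome 14: Psmd6 from 14112185 to 14120945, Psmb5 from 54614120 to 54617995, Psme1 from 55578494 to 55581527 and Psme2 from 55587440 to 55591101 (GRCm38, RefSeq). Psmb6 lies on chromosome 11 from 70525324 to 70527858, and Psmg2 on chromosome 18. The only other tested proteasome gene on chromosome 14 was Psmc6, from 45329823 to 45349074, and Psme4, from 30771775 to 30881150, was the only other one on chromosome 11 before 80 Mb. The median log2 fold change of the 5 tested genes on chromosome 14 was -0.27, and that of the 37 tested genes outside these regions was -0.07, with 31 of the 37 negative.

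Most other genes of these regions had negative log2 fold changes too. Over 416 tested genes of chromosome 14 that are not proteasome genes, the median log2 fold change was -0.14, the lowest of the 20 chromosomes compared, and 79.8% were negative. Their median deviation was -0.06 and -0.11 in B16F1-CXCL5 libraries 1 and 2, against 0.04, 0.10 and 0.04 in B16F1 libraries 1, 2 and 3, without overlap. On chromosome 11, the 539 such genes before 80 Mb had a median of -0.17, with -0.08 and -0.10 in the B16F1-CXCL5 libraries against 0.09, 0.07 and 0.06 in the B16F1 libraries. The 505 genes from 80 Mb on had a median of -0.001. In windows of 10 Mb the medians of chromosome 11 ran from -0.21 to -0.09 over the first 8 windows, of which the highest holds 16 genes and the next is at -0.15, and from -0.06 to 0.02 over the 5 windows after them.

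The share of genes at an unadjusted p under 0.05 in the lower direction was 17.5% on chromosome 14 and 29.5% on chromosome 11 before 80 Mb, beside 3.81% of the 11452 other tested genes with a position, outside chromosome 14 and chromosome 11 before 80 Mb. Chromosomes 15 and 10 had the next lowest medians, -0.11 and -0.09, and held no tested proteasome gene. The regions and the boundary at 80 Mb were chosen after the values were seen, so they carry no test, and DNA was not measured here.

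Subtracting the values of neighbours raised the log2 fold changes of the proteasome genes of these regions. The regions were chosen for their lower values in B16F1-CXCL5 tumors, so this rise was fixed in advance and carries no test. For each gene and library, the median deviation of the tested genes within 10 Mb was subtracted before the same limma fit. The log2 fold change of Psmb5 was then -0.16 (limma adjusted p = 0.799), that of Psmb6 -0.15 (limma adjusted p = 0.808) and that of Psmd6 -0.11 (limma adjusted p = 0.814). Psme1 lay at -0.10 (limma adjusted p = 0.818) and Psme2 at -0.14 (limma adjusted p = 0.749). Psmc6 lay at -0.02 and Psme4 at 0.04. Psmg2 and Psmd10, on chromosomes 18 and X, were at -0.22 (limma adjusted p = 0.564) and -0.23 (limma adjusted p = 0.692). Over all 44 genes the median was -0.07 with 40 negative, beside a median of -0.003 over all genes so adjusted. At an unadjusted p under 0.05 there were 2 of the 44, Psmg2 and Psmd10, and 0 passed. In the fit without this adjustment, 5.39% of all tested genes were lower at that p and 53.4% were negative. These shares are not given for the adjusted fit, so its counts have no like background.

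**Figure D4:**
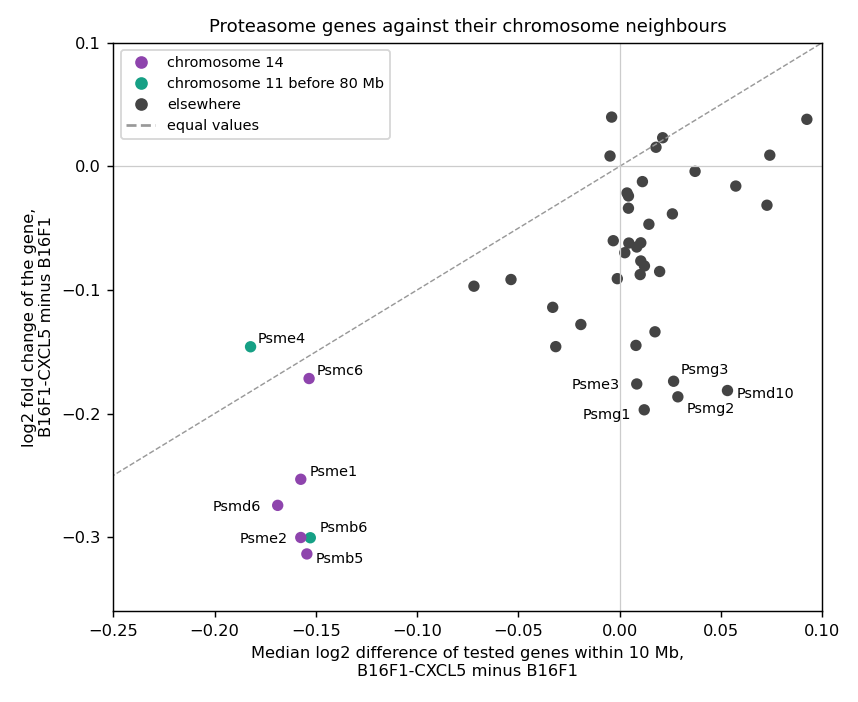
Log2 fold change of each of the 44 tested proteasome genes (vertical) against the median log2 difference of the tested genes within 10 Mb (horizontal), both B16F1-CXCL5 minus B16F1; the dashed line marks equal values. Genes of chromosome 14 and of chromosome 11 before 80 Mb have neighbours between -0.18 and -0.15, and Psmg1, Psmg2, Psmg3, Psme3 and Psmd10 lie low among neighbours near 0.

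The immunoproteasome subunits were far below their constitutive counterparts in every library, and none passed the test between the groups. Psmb8 had 15.02 and 11.02 FPKM in B16F1-CXCL5 tumors, against 10.2, 11.4 and 15.2 FPKM in B16F1 tumors, Psmb9 had 9.76 and 10.02 FPKM in B16F1-CXCL5 tumors, against 6.81, 9.23 and 9.28 FPKM in B16F1 tumors, and Psmb10 had 28.3 and 25.2 FPKM in B16F1-CXCL5 tumors, against 26.0, 27.2 and 27.8 FPKM in B16F1 tumors. Their log2 fold changes were 0.08, 0.22 and -0.02, and 0 of 3 passed. The groups of Psmb8 and Psmb10 overlapped. Psmb9 was higher in B16F1-CXCL5 tumors without overlap, as were 10.8% of all tested genes. Psmb6 was 15.3 and 12.97 times as high as Psmb9 in the B16F1-CXCL5 libraries, against 23.6, 18.97 and 19.4 times in B16F1 tumors. Both B16F1-CXCL5 ratios were below all others. The log2 difference, taken from ratios of FPKM + 1, was -0.52 (exact two-sided permutation p = 0.1, the smallest that 2 against 3 libraries allow).

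Psmb5 was 12.6 and 15.2 times as high as Psmb8 in B16F1-CXCL5 tumors, against 18.96, 21.1 and 15.4 times in B16F1 tumors, a log2 difference of -0.40 (exact two-sided permutation p = 0.2). The ratio in B16F1-CXCL5 library 2 was just below that in B16F1 library 3. Psmb7 was 10.2 and 9.54 times as high as Psmb10 in B16F1-CXCL5 tumors, against 10.1 times in each B16F1 library, a log2 difference of -0.03 (exact two-sided permutation p = 0.7). Adjusted over the 3 ratios by Benjamini-Hochberg, the exact permutation p-values were 0.3, 0.3 and 0.7. The ratios were not adjusted for position. The neighbours within 10 Mb differed by a median of -0.15 for Psmb6, -0.15 for Psmb5 and 0.01 for Psmb7. For Psmb9, Psmb8 and Psmb10 these medians were -0.06, -0.05 and -0.02.

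**Figure D5:**
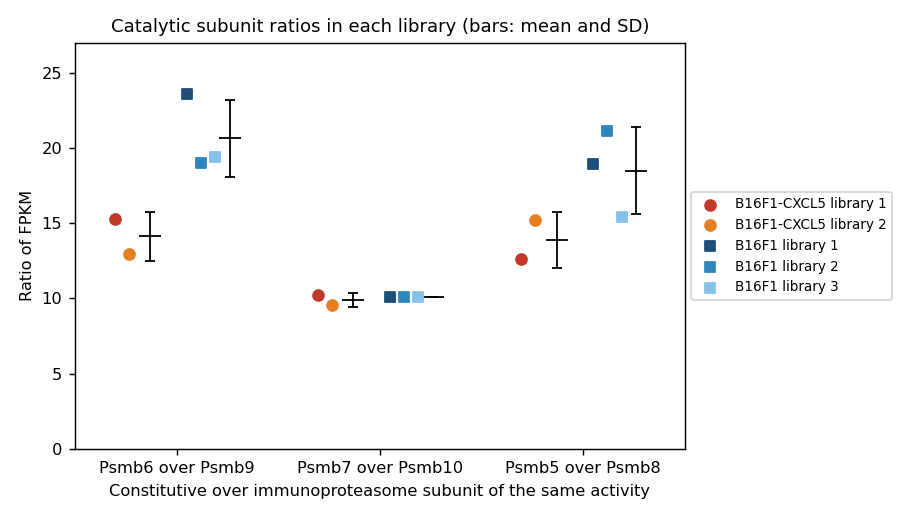
Ratio of FPKM of each constitutive catalytic subunit to the immunoproteasome subunit that takes its place, by library (points), with mean and SD of each group (bars). For Psmb6 over Psmb9 the B16F1-CXCL5 libraries lie at 15.3 and 12.97 and the B16F1 libraries at 18.97 to 23.6, while Psmb7 over Psmb10 stays between 9.54 and 10.2 in all 5.

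Proteins that work with the proteasome but carry no Psm symbol showed no test-passing difference either. Of 10 partner genes chosen by name, 9 were found and tested, 0 passed, and the median log2 fold change was -0.02 with 6 negative. For this list and those below, the share of negative values over all tested genes was 53.4%. Shfm1, the small lid protein Sem1, had 695 ± 10.7 FPKM (SD, n = 2) in B16F1-CXCL5 and 705 ± 23.2 FPKM (SD, n = 3) in B16F1 tumors, more than any Psm gene. Pomp, the chaperone of beta ring maturation, had 229 ± 12.4 FPKM in B16F1-CXCL5 and 231 ± 14.4 FPKM in B16F1 tumors.

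Of 10 genes of ubiquitin and of its activating and conjugating enzymes, 0 passed and 8 were negative, with a median of -0.08. Rps27a, a ubiquitin fusion gene, had 1066 ± 186 FPKM in B16F1-CXCL5 and 1218 ± 68.7 FPKM in B16F1 tumors. Its log2 fold change was -0.20, and -0.02 with position adjusted. Ube2n, the enzyme of lysine 63-linked chains, had 37.9 ± 2.07 FPKM in B16F1-CXCL5 and 45.6 ± 1.25 FPKM in B16F1 tumors (log2 fold change -0.26, limma adjusted p = 0.434). With position adjusted, the log2 fold change of Ube2n was -0.19.

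Among 12 shuttling and unfolding factors 0 passed, 9 were negative and the median was -0.06. Vcp, the p97 unfoldase, had 161 ± 4.97 FPKM in B16F1-CXCL5 and 167 ± 6.49 FPKM in B16F1 tumors, and Bag6, a holdase for misfolded proteins, had 74.1 ± 5.82 FPKM in B16F1-CXCL5 and 77.04 ± 4.72 FPKM in B16F1 tumors. Ubqln4, a ubiquitin shuttle, had a log2 fold change of -0.22 (limma adjusted p = 0.463), and also -0.22 with position adjusted.

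Of 11 regulators of proteasome genes 0 passed and 6 were negative, with a median of -0.02. Nfe2l1, the transcription factor that restores proteasome synthesis when the protease is inhibited, had 64.0 ± 0.655 FPKM in B16F1-CXCL5 and 59.1 ± 3.13 FPKM in B16F1 tumors, and Nfe2l2, which responds to oxidants, had 52.01 ± 0.141 FPKM in B16F1-CXCL5 and 49.5 ± 4.06 FPKM in B16F1 tumors. Hsf1, the heat shock factor, had 24.1 ± 2.01 FPKM in B16F1-CXCL5 and 30.4 ± 2.62 FPKM in B16F1 tumors (log2 fold change -0.32, limma adjusted p = 0.463). With position adjusted, the log2 fold change of Hsf1 was -0.20. Of 12 heat shock genes, 11 were negative with a median of -0.18, and 0 passed, where 53.4% of all tested genes were negative and 5.39% were lower at an unadjusted p under 0.05. The 3 with an unadjusted p under 0.05 were the chaperones Hsph1, Hspa8 and Dnaja1, with log2 fold changes of -0.73, -0.45 and -0.37 and limma adjusted p-values of 0.0674, 0.266 and 0.405. With position adjusted, these log2 fold changes were -0.78, -0.48 and -0.39. The highest means over all 5 libraries were those of Hspa8, with 1169 ± 31.0 FPKM in B16F1-CXCL5 and 1599 ± 76.2 FPKM in B16F1 tumors, and of Hsp90ab1, with 1298 ± 11.95 FPKM in B16F1-CXCL5 and 1387 ± 59.5 FPKM in B16F1 tumors.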

How the data were processed

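RNA sequencing of B16F1-CXCL5 tumors (2 libraries) and B16F1 tumors (3 libraries) was available as 1 deposited table of FPKM values per gene and library, made by the authors. Cufflinks 2.2.1, Bowtie 1.0.0, TopHat2 2.0.10, FastQC 0.10.1 and SAMtools 0.1.1.9 appear in the submitters' processing notes, with the build GRCm38. Not given in the sources used here are the annotation, how strand was treated and whether libraries were scaled to each other. Columns were matched to samples by title, and no column was left over.

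Genes that reached an FPKM of 1 in 2 or more libraries were tested with limma 3.58.1 (R 4.3.3) on log2(FPKM + 1) with an intensity trend, and p-values were Benjamini-Hochberg adjusted over all 12533 genes. The pseudocount of 1 understates changes of low genes. The fit was tested on simulated data. Ratios of single genes used an exact two-sided permutation test over all 10 assignments of the group names. That test and its log2 differences used the ratio of FPKM + 1, while the ratios printed per library are of FPKM. Depth was estimated from the first step of low values over 3059 genes with a single transcript of 800 to 6000 nt and an assumed fragment of 200 nt. FPKM hold no counts, so no counting intervals are given. Positions came from RefSeq GRCm38.p6, in which 23040 of 23284 symbols matched, 2317 by a synonym. Near-identical copies (at least 95% over 200 nt) were sought in GENCODE transcripts with minimap2 2.31, and 9 of the 46 genes match a pseudogene, Psmb5 among them at 98.99% over 790 nt. How reads shared with a copy were assigned is not stated in the labels, so these levels are uncertain.

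Members and gene lists were chosen with earlier results of these data known. Named in full were the catalytic subunits, genes with an unadjusted p under 0.05, the genes with the highest and lowest log2 fold change of each role group and genes of limited tissues; of each list, genes with an unadjusted p under 0.05 and the 2 highest. Paaf1 and Adgre1 were not found by these symbols and were not analysed here. Single values of 2 genes that this rule names in the partner lists are not reported here.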

Additional observations from a re-analysis of the deposited data

How the results depend on the processing

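No proteasome gene passed an adjusted p of 0.05 (limma) in the reported fit or in any alternative run: pseudocounts of 0.5 and 0.1, no filter, a mean FPKM of at least 3, the same sum per library, upper quartile scaling, no intensity trend, library weights, the replicate block, each library left out, and the adjustment for position, which was added after the data were seen. The smallest adjusted p of a gene named in full was 0.12. With 1 library left out, the count of lower genes at an unadjusted p under 0.05 ranged from 0 to 5, and the median log2 fold change from -0.1623 to -0.0052. The lone library of a group was then assumed to vary like the other group. That count was 0 without the second B16F1-CXCL5 library, 1 when B16F1 library 2 was dropped and 2 when B16F1 library 3 was. It was 1 with the replicate block and 2 with the position adjustment.

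Replicate numbers are shared between the groups, and same-numbered libraries did not deviate together (correlations of -0.03 and -0.02). With 2 B16F1-CXCL5 libraries these correlations cannot show whether libraries were paired, and the labels do not say. The blocked median was -0.0506. The median was -0.0344 at the same sum per library and -0.0408 with upper quartile scaling, where all tested genes had medians of 0.0318 and 0.026.

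Signs changed for 9 of the 21 genes named in full. At the same sum per library, Psmb3 was 0.0149, Psmb7 0.0019 and Psmg4 0.0266. With upper quartile scaling, Psmb3 was 0.0084 and Psmg4 0.0202. With the replicate block, Psmd8 was -0.028, Psmg4 0.0202 and Psmc3ip 0.0905. With position adjusted, Psmc3 was -0.0025 and Psmd8 -0.0652. With 1 library left out, ranges were -0.2698 to 0.0019 for Psma3, -0.1198 to 0.1995 for Psma7, -0.1473 to 0.0796 for Psmb3, -0.1801 to 0.0864 for Psmb7, -0.0919 to 0.1228 for Psmc3, -0.0521 to 0.107 for Psmd8, -0.1447 to 0.1015 for Psmg4, -0.0271 to 0.0604 for Psmd9 and -0.2282 to 0.0975 for Psmc3ip. The log2 ratio of Psmb7 to Psmb10 ranged from -0.0847 to 0.0219. The cause was not tested. FPKM carry no counts, and 2 against 3 libraries limit the precision.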
